A study of Mus musculus with 4 samples.

Results

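The genes described here are 10 genes of arginine metabolism: the inducible nitric oxide synthase Nos2, the arginases Arg1 and Arg2, the citrulline-recycling enzymes Ass1 and Asl, the arginine transporters Slc7a1 and Slc7a2, and the polyamine enzymes Odc1, Srm and Sat1. They were taken by name from a table of 55401 genes, and all 10 were found and passed the filter on low counts that left 17260 genes for testing. RNA came from bone marrow-derived macrophages of C57BL/6 mice aged 8 weeks, differentiated with M-CSF, the growth factor for macrophages, and then kept for 24 h in co-culture with MC38, a mouse colon carcinoma line. The KO group (LysM-cre, Mettl3fl/fl) carried a Cre driven by the lysozyme M promoter, which is active in myeloid cells, together with floxed alleles of Mettl3, the catalytic subunit of the writer of N6-methyladenosine on mRNA. The WT group (Mettl3fl/fl) carried the same floxed alleles without Cre. Each group had 2 libraries, numbered 1 and 3, and all 4 had been through the co-culture, so no culture without tumour cells enters a comparison. Nos2 and Arg1 were chosen by measured values, the difference in their levels between library numbers. That difference is therefore given as a description, and KO is set against WT both over all libraries and at equal library number.

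Arginine enters macrophages through cationic amino acid transporters and is then divided between enzymes that compete for it. Nitric oxide synthase turns it into nitric oxide and citrulline, and Ass1 and Asl rebuild arginine from that citrulline. Arginase turns arginine into urea and ornithine, from which Odc1 starts the synthesis of the polyamines putrescine, spermidine and spermine. High Nos2 is a textbook mark of macrophages activated by interferon and microbial products, and high Arg1 of macrophages exposed to interleukin-4 or to tumours.

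The 4 libraries had total counts of 55100415 to 79209870, and 20650 to 20986 genes had a count in each. Separate animals are not named in the labels, which speak of biological replicates, nor is a meaning given to the numbers, so p-values measure only the spread between these samples. Profiles resembled each other most at equal number: the correlation of log2 CPM (counts scaled for library size by TMM) was 0.967 between KO 1 and WT 1 and 0.963 between KO 3 and WT 3, against 0.943 between both KO libraries and 0.944 between both WT libraries. The Y-linked Ddx3y stood at 89.0 CPM in KO 1 and 72.1 CPM in WT 1, but at 0.139 CPM in KO 3 and 0.307 CPM in WT 3, so library number and the sex of the cells cannot be told apart. Mettl3 itself had 13.9 and 19.6 CPM in KO 1 and KO 3, against 18.3 and 23.2 CPM in WT 1 and WT 3, overlapping ranges (log2 fold change -0.31 ± 0.27 SE, edgeR adjusted p = 1). At equal number it was lower in KO than in WT (-0.40 at number 1 and -0.25 at number 3 on the log2 CPM scale). A gene count also covers exons that Cre does not remove, so this level does not check the genotype labels. Macrophage markers were abundant, Lyz2 at 25440 and 25780 CPM in KO 1 and KO 3, against 22060 and 40790 CPM in WT 1 and WT 3. Of 17 epithelial and carcinoma markers, 9 (Epcam, Krt8 and Krt18 among them) had a count of 0 in every library, and the list's summed FPKM was 0.901 and 0.840 in KO 1 and KO 3, against 0.546 and 0.773 in WT 1 and WT 3. The labels do not say how the tumour cells were separated from the macrophages.

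Between genotypes, none of the 10 genes passed edgeR's quasi-likelihood test at an adjusted p of 0.05, and none had an unadjusted p under 0.05 (range 0.226 to 0.994). The background for that count is that 0 of 17260 genes (0.0%) passed this test, with 391 at an unadjusted p under 0.05. DESeq2 called 73 of 25066 genes (0.291%), among them 0 of the 10. The median log2 fold change of the 10 was -0.17 with 8 of them below 0, against a median of 0.00 (rounded) over all genes tested. Both KO libraries lay below both WT libraries for 3 genes (Ass1, Asl and Sat1), where 13.4% of all genes tested did so, and above both for 0 genes, where 13.1% did so. At equal library number KO was below WT at both numbers for 4 genes (Ass1, Asl, Odc1 and Sat1; 27.1% of all genes tested) and above at both for 0 genes (25.8% of all). For the other 6 genes the sign differed between the library numbers, as it did for 47.2% of all genes tested. Differences close to 0 decide some of these counts: with scaling by total counts Asl (0.0165) and Odc1 (0.0014) were above WT at number 1 and Arg2 (-0.0175) below WT at number 3, so that Ass1, Sat1 and Arg2 were the genes below WT at both numbers.

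**Figure D1:**
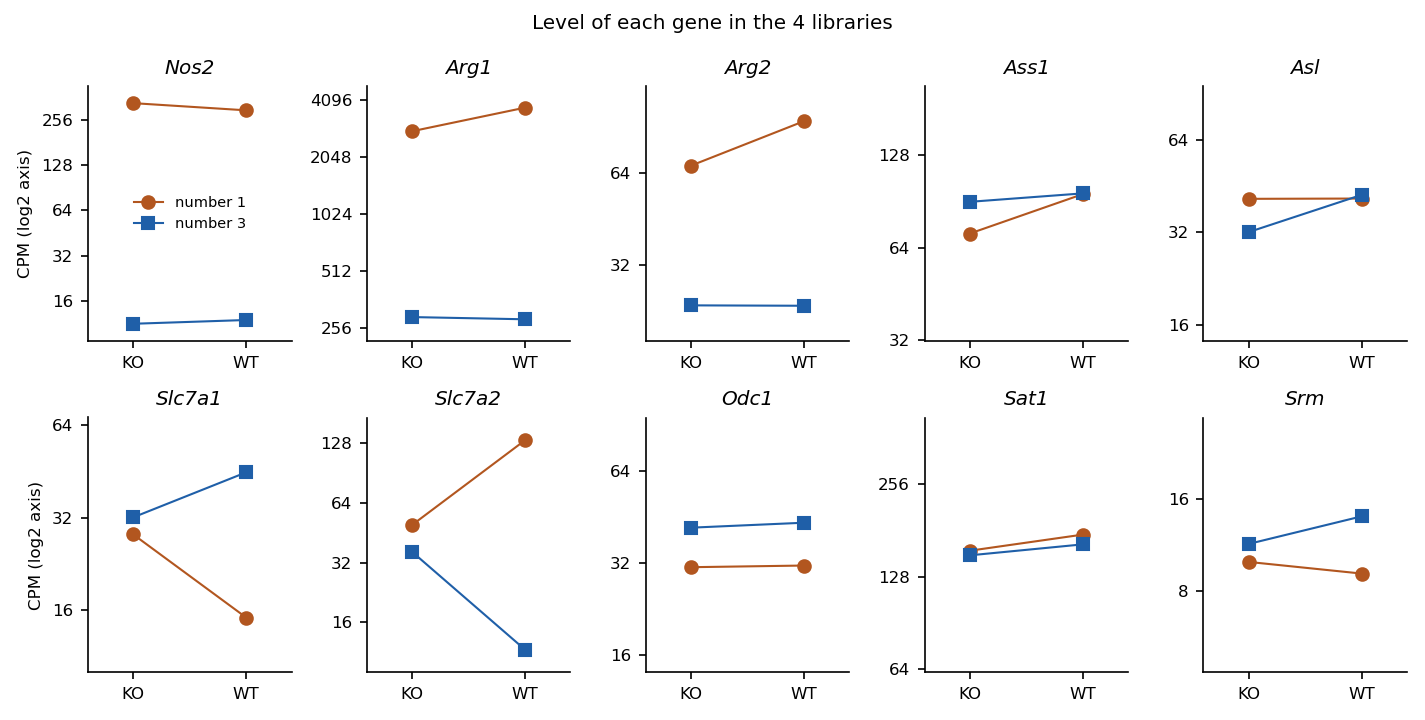
Level of each of the 10 genes, in CPM on a log2 axis with a scale of its own in each panel, in KO (left) and WT (right) libraries, with 1 point per library and a line joining libraries of equal number. The number 1 libraries stand far above the number 3 libraries for Nos2, Arg1 and Arg2 in both genotypes, and the lines of Slc7a1 and Slc7a2 run in opposite directions.

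Nos2, the inducible nitric oxide synthase (11:78920787-78960254, plus strand, in the coordinates of the deposited table), had 330.3 and 11.3 CPM in KO 1 and KO 3, against 295.9 and 12.0 CPM in WT 1 and WT 3. Its level followed the library number and not the genotype label, and the genotypes' ranges overlapped. In bulk RNA, fewer cells that express a gene and less RNA of it per cell cannot be told apart. KO 1 stood 0.16 above WT 1 and KO 3 stood 0.08 below WT 3 on the log2 CPM scale (differences 0.16 and -0.08). Each of these sets a single library against another, so the only error is that of counting, 0.06 at number 1 and 0.28 at number 3 as half-widths of 95% intervals that take 4 counts as 1 read pair. Over all libraries the log2 fold change was 0.15 ± 1.903 (SE; edgeR adjusted p = 1), an error many times the estimate. That fit holds genotype only, so its error includes the difference between library numbers. With the library number as a block, edgeR gave 0.04 ± 0.13 (SE; edgeR adjusted p = 0.986), though equal numbers are not said to mark a pair. Without the block, leaving out KO 1 gave -3.75 and leaving out WT 1 gave 3.84. Such fits hold the library numbers unequally between genotypes.

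Set against the difference between library numbers, the genotype difference of Nos2 was small. The number 1 library stood 29.2-fold above the number 3 library in KO cells and 24.7-fold above it in WT cells. Averaged over genotypes, that placed Nos2 at rank 22 of 17260 genes, counted from the gene lowest in number 3 relative to number 1. These library number values had a part in choosing the gene and support nothing further.

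Arg1, the cytosolic arginase (10:24915221-24927484, minus strand), had 2794 and 293.1 CPM in KO 1 and KO 3, against 3721 and 285.3 CPM in WT 1 and WT 3. Again the number 1 libraries were high and the number 3 libraries low in both genotypes. KO 1 lay 0.41 below WT 1 (difference -0.41 on the log2 scale, counting half-width 0.02), which is a level of 0.751 times that of WT 1. The number 3 libraries differed by 0.04, inside the counting half-width of 0.06. The log2 fold change over all libraries was -0.38 ± 1.49 (SE; edgeR adjusted p = 1). With the library number as a block it was -0.19 ± 0.17 (SE; edgeR adjusted p = 0.951). Number 1 exceeded number 3 by 9.53-fold in KO cells and by 13.0-fold in WT cells.

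Arg2, the mitochondrial arginase (12:79130777-79156301, plus strand), had 67.6 and 23.7 CPM in KO 1 and KO 3, against 94.3 and 23.6 CPM in WT 1 and WT 3. Its pattern was that of Arg1 at a smaller scale: KO 1 lay below WT 1 (-0.48, half-width 0.12), and KO 3 and WT 3 were nearly equal (0.00, half-width 0.20). The log2 fold change was -0.37 ± 0.82 (SE; edgeR adjusted p = 1), and -0.24 ± 0.17 with the library number as a block (SE; edgeR adjusted p = 0.951). Number 1 exceeded number 3 by 2.85-fold in KO cells and 3.99-fold in WT cells. Arg2 overlaps Vti1b over 285 bases and Gm48780 over 997 bases, both on the opposite strand, and the labels do not say whether counting used the strand.

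The coding sequences of the arginases are shown where they are most alike, since reads common to both genes could be counted for either. In the GENCODE M21 transcripts (GRCm38) they were 65.1% identical over 963 aligned bases, and the longest run they shared was 12 bases, far shorter than a sequencing read. Each line gives 60 coding bases, 5′ to 3′, with that shared run in capitals (coding positions 499 to 558 of Arg1 and 556 to 615 of Arg2).
Arg1: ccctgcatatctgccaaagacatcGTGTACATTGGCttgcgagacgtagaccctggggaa
Arg2: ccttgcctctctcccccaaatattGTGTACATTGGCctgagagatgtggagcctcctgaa

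Nos2, Arg1 and Arg2 were the 3 genes of the 10 that lay at least 2-fold lower in number 3 than in number 1 in both genotypes, where 4.52% of all genes tested did so. The contrast between library numbers was the one that chose the genes, so nothing is read from that count.

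**Figure D2:**
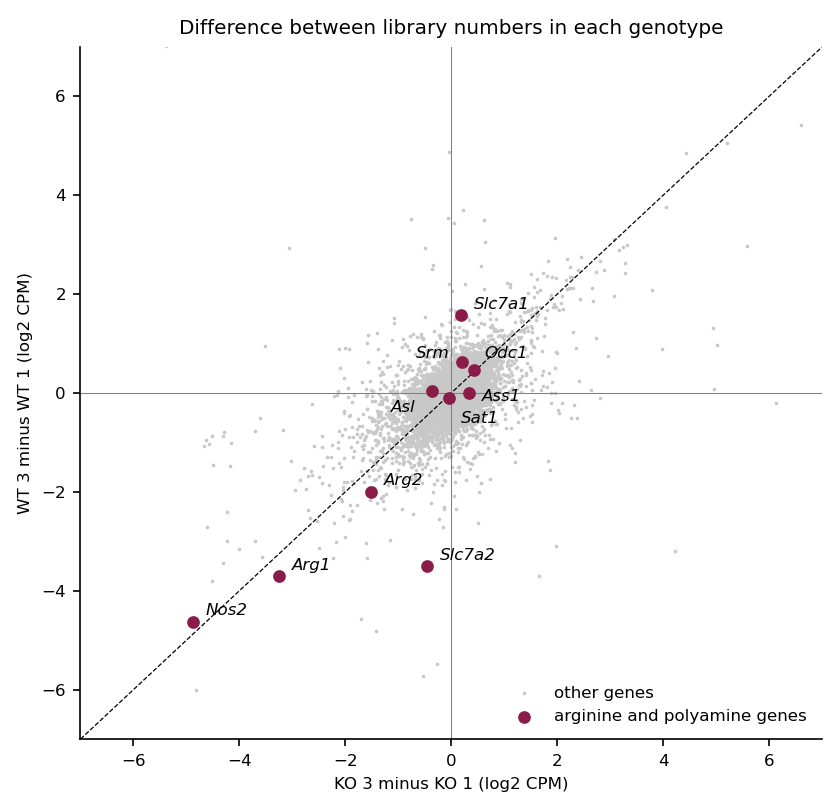
Difference between library numbers in log2 CPM, number 3 minus number 1, in KO cells (horizontal) and in WT cells (vertical), for 8694 genes with a mean of at least 10 CPM, the 10 arginine and polyamine genes being large points and the dashed line marking equal differences. Nos2, Arg1 and Arg2 lie near the dashed line at the lower left, and Slc7a2 lies far off it (-0.45 in KO cells and -3.50 in WT cells), while 10 genes fall outside the axes.

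Cell cycle and stromal genes moved with the library number too. Of 20 cell cycle genes, 18 were lower in number 3 than in number 1 in both genotypes, against 32.7% of all genes tested. The proliferation marker Mki67 had 229.5 and 100.9 CPM in KO 1 and KO 3, against 204.1 and 55.8 CPM in WT 1 and WT 3. Pcna had 117.9 and 86.4 CPM in KO 1 and KO 3, against 84.6 and 93.7 CPM in WT 1 and WT 3. It was lower in number 3 in KO cells (-0.45 on the log2 scale) but higher in WT cells (0.15). Of 16 fibroblast and stromal markers, 14 were higher in number 3 in both genotypes, against 32.9% of all genes tested. Acta2, the smooth muscle actin, had 18.1 and 88.3 CPM in KO 1 and KO 3, against 25.3 and 128.4 CPM in WT 1 and WT 3, and the summed FPKM of that list was 54.8 and 126.0 in KO 1 and KO 3, against 67.8 and 195.2 in WT 1 and WT 3. At equal library number, KO was below WT at both numbers for 15 of the 16 stromal genes, against 27.1% of all genes tested. Both KO libraries lay below both WT libraries for 0 of the 16, against 13.4% of all genes tested. The list's median log2 fold change was -0.53, and it ranged from -1.36 to 0.25 with 1 library left out in turn. Of the 16 genes, 0 were called by edgeR or DESeq2 or had an unadjusted p under 0.05 in either. Neutrophil and dendritic cell markers did not move in 1 direction with the library number as lists. Of 12 neutrophil and progenitor genes 6 could be tested, and 3 were lower and 3 higher in number 3 in both genotypes. Of 10 dendritic cell genes 7 could be tested, and 3 were lower and 2 higher. Over all genes tested 32.7% were lower and 32.9% higher. The summed FPKM of 12 neutrophil and progenitor markers was 122.0 and 64.2 in KO 1 and KO 3, against 135.7 and 70.5 in WT 1 and WT 3. Mmp8 was most of it except in KO 3 (96.1 and 29.8 in KO 1 and KO 3, against 116.6 and 46.7 in WT 1 and WT 3). S100a8 went the other way, higher in number 3 in both genotypes (24.6 and 31.1 in KO 1 and KO 3, against 18.1 and 20.9 in WT 1 and WT 3). Ly6g, Retnlg and Cxcr2 were at 0 in every library. The summed FPKM of dendritic cell markers was 5.42 and 6.78 in KO 1 and KO 3, against 3.73 and 4.28 in WT 1 and WT 3, its higher value in number 3 being that of Itgax (1.76 and 5.07 in KO 1 and KO 3, against 1.21 and 2.40 in WT 1 and WT 3). The summed FPKM of lymphocyte markers was at most 0.215. The part of these cells, of proliferation and of sex in the levels of the 10 genes was not tested.

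Ass1, argininosuccinate synthase (2:31470207-31520672, plus strand), joins citrulline to aspartate. It had 71.3 and 90.4 CPM in KO 1 and KO 3, against 95.8 and 96.3 CPM in WT 1 and WT 3. Both KO libraries lay below both WT libraries, by 0.43 at number 1 (difference -0.43, half-width 0.12) and by 0.09 at number 3 (difference -0.09, half-width 0.10). The log2 fold change was -0.25 ± 0.18 (SE; edgeR unadjusted p = 0.226, adjusted p = 1), so the difference was not separated from the spread between libraries. Unlike Nos2, Ass1 hardly followed the library number, with differences of 0.34 in KO cells and 0.01 in WT cells.

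Gm5424, an annotated near-copy of Ass1 on chromosome 10 (62071123 to 62072362, plus strand), was added after its values were seen. It differed from the Ass1 coding sequence at 6 of 1236 aligned bases in GENCODE M21, and the longest identical run was 398 bases, so many reads could be assigned to either. The lines show a 60-base window of both, 5′ to 3′ (positions 370 to 429 of the Ass1 coding sequence), with the bases that differ in capitals.
Ass1: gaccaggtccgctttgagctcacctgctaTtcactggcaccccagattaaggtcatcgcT
Gm5424: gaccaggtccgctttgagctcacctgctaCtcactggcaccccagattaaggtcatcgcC

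Gm5424 had 21.4 and 25.0 CPM in KO 1 and KO 3, against 38.9 and 54.6 CPM in WT 1 and WT 3, KO being below WT at both numbers (-0.87 at number 1 and -1.13 at number 3 on the log2 scale; edgeR log2 fold change -1.01, unadjusted p = 0.0101). The sum of Ass1 and Gm5424 was 92.7 and 115.4 CPM in KO 1 and KO 3, against 134.8 and 151.0 CPM in WT 1 and WT 3. For that sum the differences at equal number were -0.54 and -0.39. Ass1 alone had -0.43 and -0.09, the smaller in size at both numbers. The assignment of reads that match both is unknown, and the level of Ass1 is uncertain to that extent.

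Asl, argininosuccinate lyase (5:130011258-130025019, minus strand), releases arginine from the product of Ass1. It had 41.1 and 32.0 CPM in KO 1 and KO 3, against 41.2 and 42.3 CPM in WT 1 and WT 3. The low value was that of KO 3 alone, and the other libraries were within a narrow range. KO 3 lay below WT 3 (-0.40, half-width 0.16), KO 1 and WT 1 were equal within counting error (0.00, half-width 0.16), and the log2 fold change was -0.19 ± 0.19 (SE; edgeR adjusted p = 1).

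Slc7a1 and Slc7a2 encode cationic amino acid transporters, Slc7a1 the widely expressed one and Slc7a2 the one known for its induction in activated macrophages. Slc7a2 (8:40862396-40922308, plus strand) had 49.5 and 36.2 CPM in KO 1 and KO 3, against 132.1 and 11.7 CPM in WT 1 and WT 3. The WT libraries held both the highest and the lowest value, and the KO libraries lay between them. At number 1 KO was lower, at 0.374 times the level of WT (-1.42, half-width 0.12), and at number 3 it was higher, at 3.10 times the level of WT (1.63, half-width 0.24).

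Slc7a2 was the single gene of the 10 that differed between KO and WT at least 2-fold in opposite directions at the library numbers, which 2.16% of all genes tested did. By the size of the difference between the within-number values it ranked 36 of 8694 genes with a mean of at least 10 CPM. Number 1 exceeded number 3 by 1.36-fold in KO cells and by 11.3-fold in WT cells. With 1 library in each cell of that layout the interaction could not be tested. The log2 fold change over all libraries was -0.75 ± 1.08 (SE; edgeR adjusted p = 1). It was -1.62 without WT 3, 1.88 without WT 1, and 0.0714 in limma on log2(FPKM + 0.1).

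Slc7a1 (5:148327410-148399904, minus strand) had 28.2 and 32.0 CPM in KO 1 and KO 3, against 15.1 and 44.9 CPM in WT 1 and WT 3. Its order was the reverse of that of Slc7a2, with the KO libraries between the WT libraries and WT 1 lowest. KO stood at 1.86 times the level of WT at number 1 (0.90, half-width 0.24) and at 0.714 times at number 3 (-0.49, half-width 0.16), rank 238 by the size of the difference between these values. The log2 fold change over all libraries was 0.00 ± 0.54 (SE; edgeR adjusted p = 1).

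Reads common to both transporters could be counted for either. In the GENCODE M21 transcripts their coding sequences were 67.1% identical over 1834 aligned bases, and the longest run in common was 23 bases, again short of a read.

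**Figure D3:**
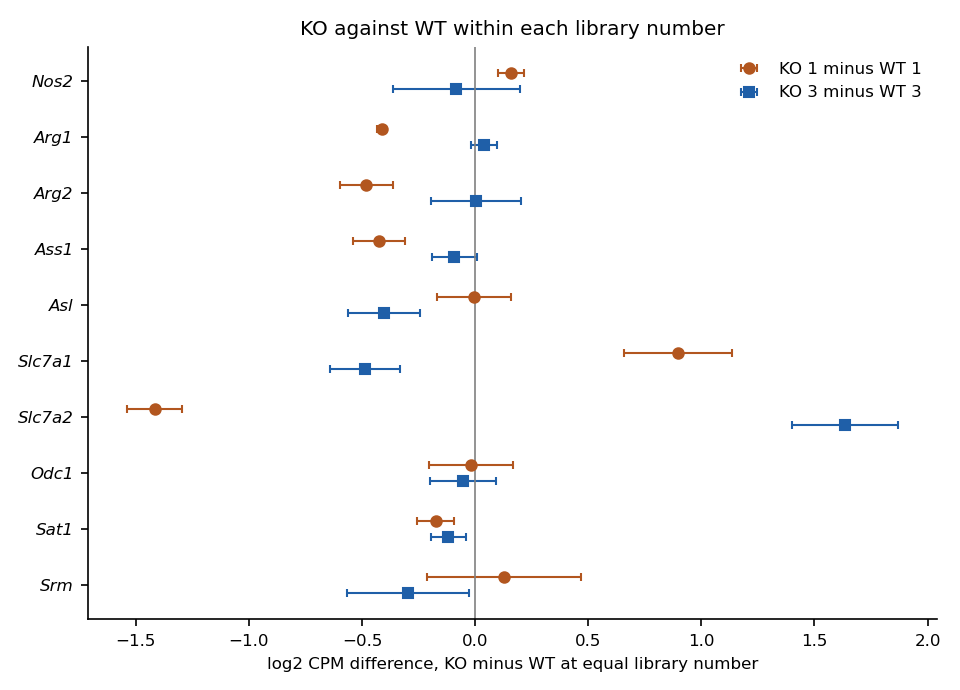
Difference in log2 CPM between KO and WT libraries of equal number for each of the 10 genes, positive where KO was higher, with circles for number 1 and squares for number 3. Bars are 95% counting intervals for single libraries and hold no error between cultures, and the circle and square of Slc7a2 (-1.42 and 1.63) and of Slc7a1 (0.90 and -0.49) lie on opposite sides of 0.

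Odc1, ornithine decarboxylase (12:17544794-17551084, plus strand), had 31.0 and 41.7 CPM in KO 1 and KO 3, against 31.4 and 43.3 CPM in WT 1 and WT 3. It was nearly equal between genotypes at both numbers, with differences of -0.02 and -0.05 inside the counting half-widths of 0.19 and 0.15 (log2 fold change -0.04 ± 0.26 SE, edgeR adjusted p = 1). In the mouse annotation 14 other genes matched the Odc1 transcript over at least 150 bases. They were 91.8% to 97.8% identical over aligned lengths of 291 to 1407 bases, where the transcript has 2208. Their summed counts were 38.0% and 30.5% of the Odc1 count in KO 1 and KO 3, against 35.1% and 27.4% in WT 1 and WT 3. Most of these counts were those of AW146154, which matched over 921 bases. It had 464 of 736 in KO 1, 614 of 1006 in KO 3, 322 of 599 in WT 1 and 446 of 734 in WT 3. How many of the counts came from Odc1 is unknown, and these shares limit only the Odc1 reads that were counted for the copies. They do not cover reads of the copies counted for Odc1, or reads left out because they match several genes.

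Sat1, the acetyltransferase that starts the back-conversion and export of polyamines (X:155213132-155216449, minus strand), had 155.7 and 150.4 CPM in KO 1 and KO 3, against 175.7 and 163.3 CPM in WT 1 and WT 3. KO was lower at both numbers, by amounts beyond the counting half-widths (-0.17 with 0.08 at number 1, and -0.12 with 0.08 at number 3), and the ranges of the genotypes did not overlap. The log2 fold change of -0.15 ± 0.15 (SE) did not pass edgeR's test (unadjusted p = 0.361, adjusted p = 1). Differences beyond counting error at both numbers were found for 3 of the 10 genes (Slc7a1, Slc7a2 and Sat1) and for 19.0% of all genes tested. At number 1 there were 7 such genes of the 10 (31.5% of all genes tested), and at number 3 there were 5 (39.6% of all). Counting intervals narrow as counts rise. The 10 genes had at least 496 counts in every library, while the genes tested included some with few counts. The shares can therefore not be compared directly.

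Srm, spermidine synthase (4:148591503-148594619, plus strand), had a low level, 9.96 and 11.4 CPM in KO 1 and KO 3, against 9.13 and 14.0 CPM in WT 1 and WT 3. KO lay between the WT libraries. The differences were 0.13 at number 1 (half-width 0.34) and -0.30 at number 3 (half-width 0.27), and the log2 fold change was -0.12 ± 0.30 (SE; edgeR adjusted p = 1).

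Levels of different genes were compared only on the deposited FPKM values, which are scaled by gene length. Arg1 was the most abundant of the 10 in every library, at 1129 and 117.4 FPKM in KO 1 and KO 3, against 1489 and 116.9 FPKM in WT 1 and WT 3. By the mean over all libraries it stood at 713.1 FPKM and was followed by Sat1 at 52.3. Ass1 (33.0), Arg2 (32.9) and Nos2 (32.8) came next, with means closer than the spread of any of them over the libraries. The lower end held Odc1 (9.72), Asl (7.28), Srm (6.26), Slc7a2 (5.62) and Slc7a1 (2.35). This order of means did not hold within the library numbers for Nos2. In number 1 Nos2 was above Sat1 (67.0 against 50.5 FPKM in KO 1, and 59.4 against 56.4 FPKM in WT 1), while at 2.27 FPKM in KO 3 it was below Slc7a1 (2.48) and the lowest of the 10, and at 2.46 FPKM in WT 3 it was above Slc7a2 (1.16) alone. The ranges of Asl and Srm over the libraries overlapped, as did that of Slc7a2 with both and with Slc7a1.

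Arginase transcripts exceeded those of Nos2 in all libraries. The ratio of Arg1 to Nos2 in FPKM was 16.9 and 51.8 in KO 1 and KO 3, against 25.1 and 47.6 in WT 1 and WT 3. It was thus lower in KO than in WT at number 1 and higher at number 3, and at both numbers closer between genotypes than between numbers. Arg1 made up 96.4% and 88.8% of the arginase FPKM (Arg1 plus Arg2) in KO 1 and KO 3, against 96.2% and 88.6% in WT 1 and WT 3, shares that followed the library number and were nearly equal between genotypes. The sum of both transporters was 7.07 and 6.02 FPKM in KO 1 and KO 3, against 14.1 and 4.72 FPKM in WT 1 and WT 3. The ratio of Slc7a2 to Slc7a1 was 2.21 and 1.43 in KO 1 and KO 3, against 11.1 and 0.327 in WT 1 and WT 3, so Slc7a2 exceeded Slc7a1 in every library except WT 3. Ass1 stood below Nos2 in the number 1 libraries (0.397 of the Nos2 FPKM in KO 1, 0.595 in WT 1) and well above it in the number 3 libraries (14.7 times in KO 3, 14.8 times in WT 3).

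Of 37 other genes that make or use arginine, nitric oxide and the cofactor tetrahydrobiopterin, 32 could be tested and 0 were called in either direction by edgeR (1 at an unadjusted p under 0.05) or by DESeq2. Their median log2 fold change was -0.03, and both KO libraries lay below both WT libraries for 5 and above for 4, close to the shares of 13.4% and 13.1% over all genes. Slc3a2, the heavy chain shared by several amino acid transporters, had 202.5 and 462.0 CPM in KO 1 and KO 3, against 219.0 and 508.8 CPM in WT 1 and WT 3. It was the higher in number 3 in both genotypes and nearly equal between genotypes. Cyb5r3, a cytochrome b5 reductase, had 244.5 and 240.0 CPM in KO 1 and KO 3, against 242.2 and 263.4 CPM in WT 1 and WT 3.

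Further genes of that list are named after their values were seen. Slc6a8, the creatine transporter, had 32.1 and 58.9 CPM in KO 1 and KO 3, against 75.6 and 120.4 CPM in WT 1 and WT 3. KO was below WT at both numbers (-1.23 and -1.03), the ranges did not overlap, and edgeR gave a log2 fold change of -1.11 with an unadjusted p of 0.0414 that did not survive adjustment. Gatm, which makes the creatine precursor from arginine and glycine, had 39.8 and 20.7 CPM in KO 1 and KO 3, against 22.9 and 14.4 CPM in WT 1 and WT 3, higher in KO at both numbers (0.80 and 0.52; edgeR unadjusted p = 0.163). Gch1, the first enzyme of tetrahydrobiopterin synthesis, on which nitric oxide synthase depends, had 24.9 and 32.7 CPM in KO 1 and KO 3, against 23.0 and 28.4 CPM in WT 1 and WT 3, and so did not share the library number pattern of Nos2.

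All 22 other polyamine genes could be tested, and 0 were called in either direction by edgeR (0 at an unadjusted p under 0.05; median log2 fold change 0.01) or by DESeq2. Eif5a, the translation factor that carries the spermidine-derived residue hypusine, had 260.5 and 251.0 CPM in KO 1 and KO 3, against 228.0 and 297.7 CPM in WT 1 and WT 3. Atp13a2, a lysosomal exporter of polyamines, had 378.0 and 256.5 CPM in KO 1 and KO 3, against 416.3 and 306.5 CPM in WT 1 and WT 3, lower in KO at both numbers (-0.14 and -0.26) but with overlapping ranges. The list's summed FPKM spanned 317.0 to 352.0 in KO and 322.8 to 341.8 in WT.

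**Figure D4:**
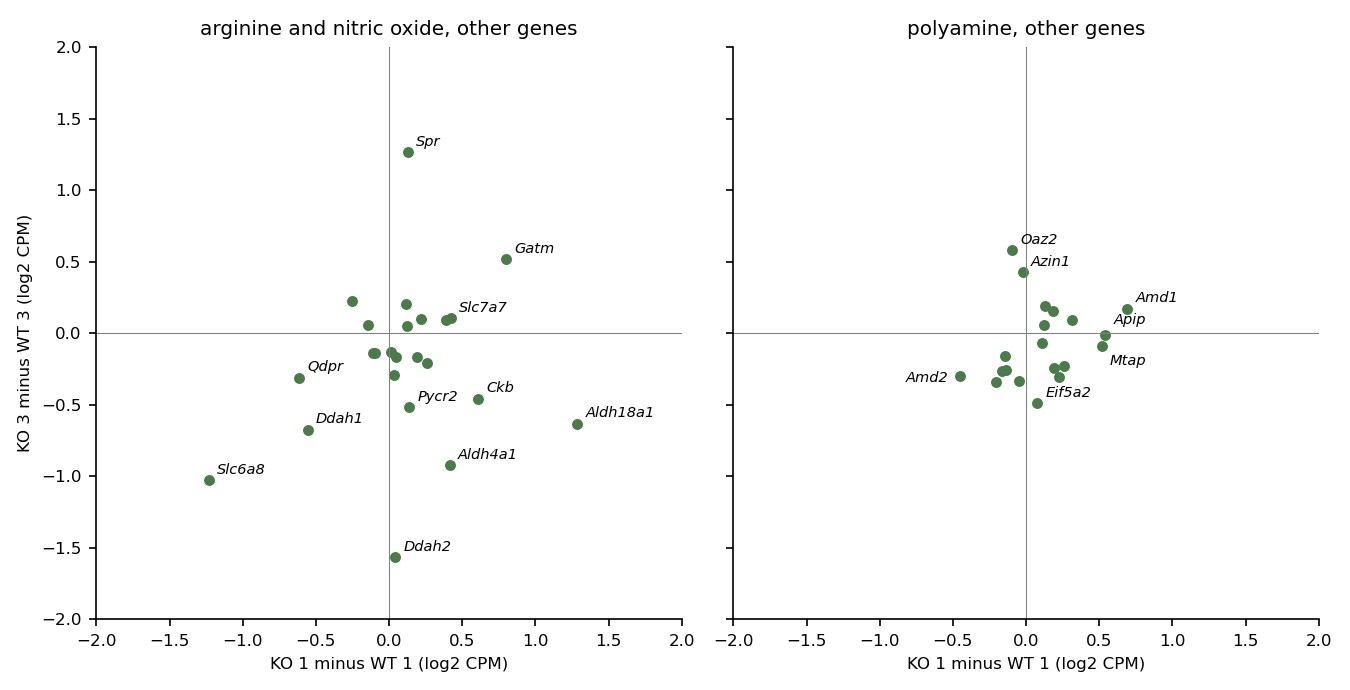
Difference between KO and WT in log2 CPM at number 1 (horizontal) and at number 3 (vertical) for 24 other arginine and nitric oxide genes (left) and 20 other polyamine genes (right) with a mean of at least 1 CPM. Slc6a8 lies at the lower left (-1.23 and -1.03) and Gatm at the upper right (0.80 and 0.52), and 0 of the genes shown were called by edgeR.

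Genes often measured beside Nos2 and Arg1 were described in the same way, as lists. Of 20 genes of classical activation, 16 could be tested and 0 were called by edgeR (3 at an unadjusted p under 0.05; median log2 fold change 0.18, and 0.35 at number 3 against -0.23 at number 1). DESeq2 called 1 of them, the interferon-induced chemokine Cxcl10, named after its values were seen, which had 7.07 and 10.2 CPM in KO 1 and KO 3, against 3.26 and 2.47 CPM in WT 1 and WT 3 (DESeq2 adjusted p = 0.0423). Il1b had 1539 and 1238 CPM in KO 1 and KO 3, against 2212 and 890.6 CPM in WT 1 and WT 3, below WT at number 1 and above it at number 3. Fpr2, a formyl peptide receptor, had 340.4 and 618.6 CPM in KO 1 and KO 3, against 527.3 and 340.2 CPM in WT 1 and WT 3, with the same signs. The list's median difference between library numbers was 0.21 in KO cells and -0.23 in WT cells, so the classical genes as a list did not share the low level of Nos2 in number 3.

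Of 20 genes of alternative activation, 17 could be tested and 0 were called by edgeR (1 at an unadjusted p under 0.05; median log2 fold change -0.02) or by DESeq2. Mrc1, the mannose receptor, had 1119 and 586.8 CPM in KO 1 and KO 3, against 1132 and 662.3 CPM in WT 1 and WT 3, and Msr1, a scavenger receptor, had 561.6 and 1075 CPM in KO 1 and KO 3, against 658.5 and 817.6 CPM in WT 1 and WT 3. Mrc1 was the higher in number 1, like Arg1, and Msr1 the higher in number 3. In this list 11 genes were lower in number 3 in both genotypes and 5 higher, beside 32.7% and 32.9% of all genes tested.

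Of 26 receptors and transcription factors with a described part in the expression of these genes, all could be tested and 0 were called by edgeR (2 at an unadjusted p under 0.05; median log2 fold change -0.01). Il4ra, the receptor chain for interleukin-4, had 917.2 and 434.6 CPM in KO 1 and KO 3, against 906.9 and 459.7 CPM in WT 1 and WT 3, high in number 1 in both genotypes and nearly equal between genotypes. Hif1a, the hypoxia-inducible factor, had 791.9 and 967.7 CPM in KO 1 and KO 3, against 1027 and 930.6 CPM in WT 1 and WT 3, with overlapping ranges. Tlr4, the receptor for lipopolysaccharide, is named after its values were seen. It had 170.8 and 110.7 CPM in KO 1 and KO 3, against 23.1 and 12.0 CPM in WT 1 and WT 3 (log2 fold change 3.00, edgeR unadjusted p = 0.00128). It was the 1 gene of this list that DESeq2 called (DESeq2 adjusted p = 7.68e-09). Tlr4 was above WT at both numbers without overlap, while Nos2 was not.

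The genes whose profiles were most like those of Nos2 and Arg1 were sought among the 8694 genes with a mean of at least 10 CPM, by the distance between log2 CPM profiles centred on their own mean over the 4 libraries. For Nos2 they were Rn7s1 (a 7S RNA; distance 0.95), Rpl29 (a ribosomal protein; 1.06), Ighm (the immunoglobulin mu chain; 1.28), Arg1 (1.33) and CT010467 (1.43). For Arg1 they were F5 (coagulation factor V; 0.68), CT010467 (0.77), Adm (adrenomedullin; 0.82), Ighm (0.87) and Rn7s1 (0.91). Rn7s1 had 27.8 and 1.36 CPM in KO 1 and KO 3, against 16.9 and 1.52 CPM in WT 1 and WT 3, and F5 had 35.5 and 2.97 CPM in KO 1 and KO 3, against 55.3 and 5.55 CPM in WT 1 and WT 3. CT010467 had 11120 and 850.1 CPM in KO 1 and KO 3, against 7074 and 882.7 CPM in WT 1 and WT 3. All of these were high in number 1 and low in number 3 in both genotypes, so 4 libraries in 2 pairs rank genes here by that single contrast. Whether the library numbers also differed in RNA quality or library preparation was not tested.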

How the data were processed

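The authors deposited 1 table, which holds estimated counts and FPKM values by gene and library, per the file headers. Per the submitters' processing notes, the tools were cutadapt 1.9, HISAT2 2.0.4 and StringTie 1.3.4d, with edgeR and DESeq2 (no version). The libraries were poly(A)-selected and made with dUTP, which marks the strand, per the labels' protocols. The genome build, the use of strand and the treatment of reads with several matches are not given in the sources used here. Coordinates are those of the table; start and end equalled those of GENCODE M21 (GRCm38) for 94.2% of the 55141 identifiers found in both, and for 7 of the 10 genes. The estimated counts, as deposited, were whole and not normalized. Between 38.7% and 39.6% of low counts (1 to 24) were multiples of 4. Counting intervals assume 4 counts per read pair, which these shares do not settle. Fewer counts per pair would make the intervals narrower. On that basis 12 counts (3 pairs) were 0.152 to 0.218 CPM. PCR copies were not marked, so both cover only the error of counting. The deposited FPKM values write 0 as 0.0001. A further 4 value columns matched none of the samples by name and were left out.

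Counts were tested with edgeR 4.0.16 (R 4.3.3; TMM, filterByExpr, quasi-likelihood test, genotype only, two-sided, Benjamini-Hochberg over all genes tested, threshold 0.05), after a check on simulated counts. Within-number differences are log2 CPM with a prior count of 2. Alternatives were DESeq2 1.42.0, other scalings, no filter, limma 3.58.1 on log2(FPKM + 1) and log2(FPKM + 0.1), the replicate number as a block, and each library left out in turn. Near-copies were found with blastn 2.17.0 at 90% identity or more. The genes, lists and rules were chosen with earlier results of these data known. Named genes are all 10; from each list the called genes or, with none called, the 2 with the highest mean FPKM; and the 5 profiles nearest to Nos2 and to Arg1, without predicted genes and pseudogenes. In the cell type lists not every such gene is named, and others are marked where they are named. Some items are not reported here.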

Additional observations from a re-analysis of the deposited data

Results flagged for a closer look

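For 6 of the 10 genes the KO libraries stood on opposite sides of WT at the library numbers 1 and 3. The difference between these effects (number 3 less number 1, log2) was 3.05 for Slc7a2, -1.39 for Slc7a1, 0.48 for Arg2, 0.45 for Arg1, -0.42 for Srm and -0.24 for Nos2. None of these differences was tested, since each rests on a single library per genotype and number. The sign of Arg2 at number 3 (0.0039) turned to -0.0175 with total counts and -0.0263 as log2(FPKM + 1), and with total counts Asl (0.0165) and Odc1 (0.0014) at number 1 turned above 0 and so joined the genes with opposite signs. Opposite signs were found in 47.2% of all genes tested. For Arg1, Arg2, Nos2 and Srm at least one of the within-number values was inside its counting error, and for Slc7a1 and Slc7a2 neither was. With 1 library each, differences between the numbers in sex, in stromal and in cell cycle genes cannot be told apart from a difference in the effect of genotype.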

How the results depend on the processing

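With the genotype alone in the model, edgeR called 0 genes, DESeq2 called 73 (607 at an unadjusted p under 0.05), and DESeq2 with the replicate number as a block called 170, while edgeR with the block again called 0 (929 at an unadjusted p under 0.05); of the 10 genes 0 were called under any setting run. Equal numbers are not said to mark a pair, there are only 2 of them, and deviations from the group means correlated at 0.42 between libraries of equal number. Outside the omission of single libraries, 85 of 90 fold changes of the 10 genes kept their sign. The exceptions were Slc7a1 at -0.0141 with upper-quartile scaling and -0.00658 with total counts, and Slc7a2 at 0.0948 with the edgeR replicate block, 0.113 with the DESeq2 block and 0.0714 in limma on log2(FPKM + 0.1). The cause was not tested. Scaling moved the median of all genes by at most 0.02. Without 1 library in turn, edgeR called 0 genes in each fit, and the log2 fold change ranged from -3.75 to 3.84 for Nos2, -2.76 to 2.44 for Arg1, -1.30 to 0.95 for Arg2, -1.62 to 1.88 for Slc7a2, -0.57 to 1.00 for Slc7a1, -0.38 to 0.23 for Srm and -0.27 to 0.22 for Odc1. It stayed below 0 for Ass1 (-0.43 to -0.07), Asl (-0.37 to -0.02) and Sat1 (-0.20 to -0.09). In these fits the genotype left with 1 library is assumed to vary like the other. List medians moved by more than the SD of their within-number medians in 21 of 48 omissions and 2 of 12 blocked fits. Recomputed within-number differences moved by less than counting error in 76 of 80 cases, and 5 small ones changed sign: Asl at number 1 (0.0165 with total counts, 0.0120 as log2(FPKM + 1)), Odc1 at number 1 (0.0014 with total counts) and Arg2 at number 3 (-0.0175 with total counts, -0.0263 as log2(FPKM + 1)).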
